A study of Danio rerio with 6 samples.

Results

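The genes described here build and run cilia, and they were chosen by name from a table of read counts of whole zebrafish (*Danio rerio*) embryos. A row was taken when its name, without a trailing copy number, began with *ift*, *bbs*, *dnah*, *dnai*, *cfap*, *rsph* or *tekt* and a digit, or with *dnaaf*. This gave 101 of the 47445 rows, holding 73 distinct gene names. Of these rows, 31 belong to the transport class (*ift* and *bbs*) and 70 to the motile axoneme class (the other 6 name groups). The *foxj1* genes were not members.

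Total RNA depleted of ribosomal RNA was sequenced from 3 samples labelled *rapgef1b* knockdown and 3 labelled control, wild type, all from embryos at 1 day post-fertilisation. *rapgef1b* encodes an exchange factor of Rap GTPases, and the title of the study asks about neural crest specification and presomitic mesoderm patterning. The labels give neither the depletion reagent nor any reagent in the controls, and they do not say whether the samples of a group came from separate pools of embryos. P-values therefore measure the spread between these samples, which may be technical.

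Cilia are microtubule projections of the cell surface. Intraflagellar transport (IFT) carries proteins along them on trains made of IFT-A and IFT-B complexes, and the BBSome, a complex of Bardet-Biedl syndrome proteins, moves membrane proteins through them. Motile cilia beat with outer and inner dynein arms, which are assembled in the cytoplasm by dedicated factors, and with radial spokes and a central apparatus. In the zebrafish embryo, motile cilia are carried by the pronephros, the floor plate of the spinal cord and the otic vesicle, among others. Many other cells carry a primary cilium, which needs transport but not the motile machinery.

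Library totals ranged from 2042600 to 3809123 counts. The target *rapgef1b* showed no decrease under the knockdown label. In CPM, read counts scaled to library size with TMM factors, it was at 142, 105 and 140 in replicates 1, 2 and 3 of that group, against 109, 111 and 109 CPM in the controls. The log2 fold change was 0.24 (standard error, SE, 0.14). In edgeR's quasi-likelihood test, its p-value was 0.386 after Benjamini-Hochberg adjustment over 15607 tested rows, called the edgeR-adjusted p here. Groups are therefore called by their labels, and each fold change is that of the libraries labelled knockdown over the controls.

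Among the 46 members with enough counts to be tested, *ift172* was about halved in the libraries labelled knockdown, at a fold of 0.48, while *ift27* and *dnah7* rose by folds of 2.32 and 1.61. The other 43 tested members did not pass the threshold, an adjusted p-value under 0.05. Over the whole table, 4.29% of tested rows were called, 2.01% higher and 2.27% lower. Of those 669 called rows 314 were higher, and with library size alone as the scaling 412 of 699 were higher. The members' share, 3 of 46 or 6.52%, lay near that background. In the transport class 2 of 15 tested rows were called, 1 in each direction, and in the motile axoneme class 1 of 31, higher.

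*ift172* encodes a large subunit of IFT-B. It had 34.4, 21.7 and 23.4 CPM in replicates 1, 2 and 3 of the libraries labelled knockdown, against 53.2, 48.1 and 66.4 CPM in the controls. All 3 libraries labelled knockdown lay below all 3 controls. The means were 26.5 ± 6.88 CPM and 55.9 ± 9.44 CPM in that order (SD, n = 3 each). This is a log2 fold change of -1.06 (SE 0.19), with a 95% confidence interval from -1.46 to -0.65 and an edgeR-adjusted p of 0.00298. This fall was called in all 13 alternative fits, with log2 fold changes from -1.29 to -0.94 and adjusted p-values of at most 0.025. RefSeq's GRCz12tu gene table places the microRNA gene *mir124-2* and an uncharacterised locus inside the span of *ift172*. The row named *mir124-2* held at most 4 counts in any library. It is 1 of 6 rows of the name *mir124*, and whether it is that RefSeq gene is not given in the sources used here. Since the strand setting of the counting is not given in the sources used here, reads of such overlapping genes cannot be told apart from those of *ift172*. RNA was taken from whole embryos, so fewer cells that use a gene and less RNA per cell cannot be told apart, here or for the genes that follow.

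**Figure D1:**
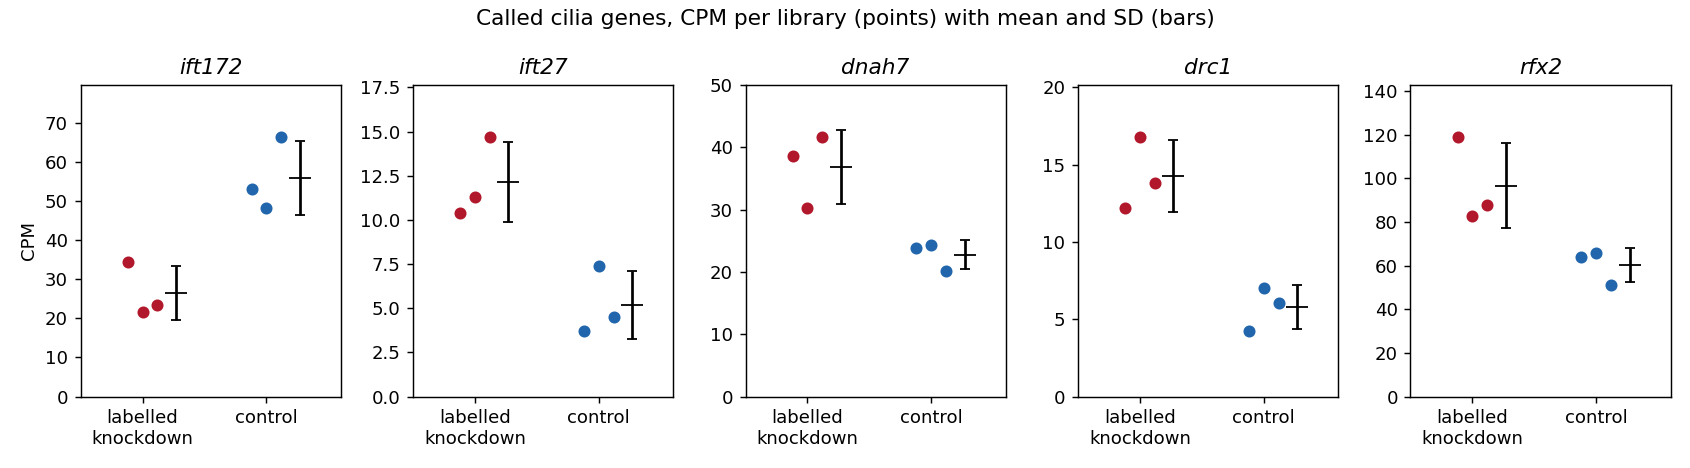
CPM per library (points; libraries labelled knockdown at left in red, controls at right in blue) of the 3 called members *ift172*, *ift27* and *dnah7* and of the called genes *drc1* and *rfx2* from other cilia lists, with the mean and SD of 3 libraries. *ift172* lies at 21.7 to 34.4 CPM in the libraries labelled knockdown and 48.1 to 66.4 CPM in controls, and the other 4 genes are higher in each library labelled knockdown than in any control.

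*ift27*, a small GTPase of IFT-B that takes part in moving the BBSome out of cilia, was higher. Its level was 10.4, 11.3 and 14.7 CPM in the libraries labelled knockdown, against 3.71, 7.37 and 4.53 CPM in the controls. The groups did not overlap, but the counts were small, from 24 to 32 in the libraries labelled knockdown and from 9 to 23 in the controls. The log2 fold change was 1.21 (SE 0.32), and the edgeR-adjusted p was 0.0348. The call was lost with DESeq2, at an adjusted p of 0.114, and in 4 of the 6 fits that left out 1 library. Those were the fits without knockdown replicate 2 or 3 and without control replicate 1 or 3, at up to 0.205. *ift27* reached the count filter's cutoff of 4.5 CPM, before TMM scaling, in every library labelled knockdown but not in every control.

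The IFT-B subunits *ift57* and *ift81* lay higher without passing the threshold. *ift57* had 14.8, 20.4 and 23.8 CPM in the libraries labelled knockdown, against 11.1, 10.6 and 13.1 CPM in the controls. The log2 fold change of *ift57* was 0.78 ± 0.24 (SE) and its edgeR-adjusted p 0.0756. Leaving out knockdown replicate 1 gave a call, at 0.0354. *ift81*, which binds tubulin together with *ift74*, had 21.8, 22.6 and 18.8 CPM in the libraries labelled knockdown, against 15.6, 12.8 and 15.6 CPM in the controls, with an edgeR-adjusted p of 0.184. In both genes the lowest library labelled knockdown lay above the highest control.

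*ift74*, in contrast, did not separate the groups. It had 40.5, 48.4 and 31.6 CPM in the libraries labelled knockdown and 41.6, 50 and 36.2 CPM in the controls. The log2 fold change of *ift74* was -0.094, with a 95% confidence interval from -0.48 to 0.29. The ranges overlapped, and the interval leaves out a change as large as that of *ift172*. The remaining tested IFT-B rows of the transport class were *ift20*, *ift22*, *ift46*, *ift52* and *ift80*. Their log2 fold changes lay between 0.12 and 0.49, with edgeR-adjusted p from 0.282 to 0.868. *ift88*, a core IFT-B subunit, held 0, 2 and 0 reads in the libraries labelled knockdown and 2, 2 and 0 reads in the controls, too few for a fold. Its second row was at 0 in all 6 libraries. What the rows with a copy number stand for is not given in the sources used here, and the part of annotation and counting in such near-zero rows was not tested. They are therefore not read as expression levels, and the same holds for every member row near 0.

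Of the IFT-A genes in the transport class, which serve the return leg of transport, only the row *ift122-2* was tested. It had 9.58, 8.15 and 11.5 CPM in the libraries labelled knockdown and 6.09, 6.73 and 6.03 CPM in the controls. The groups did not overlap, yet its log2 difference of 0.62 had an edgeR-adjusted p of 0.273. *ift140* is split over 3 rows, none of which was tested. Summed over its rows it averaged 11.4 CPM in the libraries labelled knockdown and 7.79 CPM in the controls (log2 fold change 0.52, adjusted p 0.344) in the fit on summed rows. *ift43* averaged 3.56 ± 1.95 CPM and 4.57 ± 1.43 CPM in the same order (SD, n = 3 each) and was not tested.

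No BBS gene was called. The BBSome subunit *bbs7* had 17.8, 20.8 and 21.6 CPM in the libraries labelled knockdown, against 16.1, 14.1 and 16.1 CPM in the controls (log2 fold change 0.38, edgeR-adjusted p 0.365). *bbs9*, another subunit, overlapped between the groups, at 10.5 to 18.1 CPM in the libraries labelled knockdown and 13.1 to 17 CPM in the controls. *bbs5* had a log2 change of 0.35, with an edgeR-adjusted p of 0.655. *bbs12*, a chaperonin-like protein needed to assemble the BBSome, had the lowest log2 fold change of the 4, -0.73. Its interval ran from -1.61 to 0.15, and the adjusted p-value was 0.379. *bbs2*, *bbs4* and *bbs10* had at most 1 count in any row and library. *bbs1* averaged 2.85 CPM in the libraries labelled knockdown and 2.99 CPM in the controls, and its 2 rows summed gave a log2 fold change of 0.14.

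**Figure D2:**
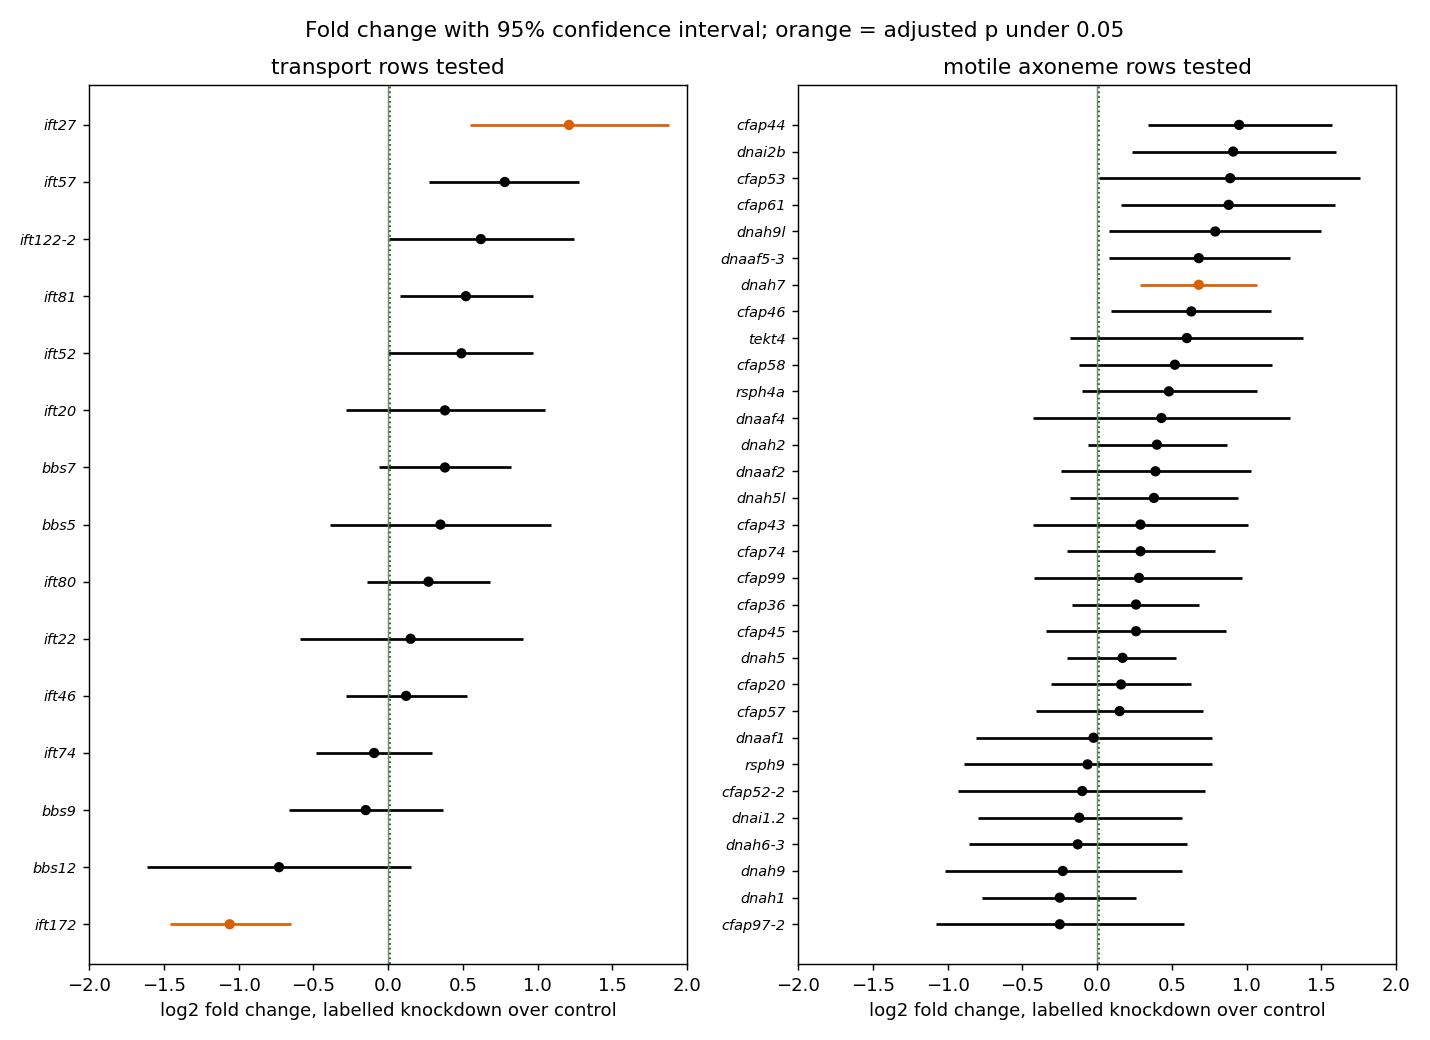
Log2 fold change (point) with its 95% confidence interval (line) for the 15 transport rows and 31 motile axoneme rows tested; orange marks an adjusted p-value under 0.05 and the dotted line the median of all tested rows, 0.011. *ift172* and *ift27* lie at opposite ends of the transport class, at -1.06 and 1.21, and the motile axoneme class runs from -0.25 to 0.95.

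Among the motile axoneme genes, the dynein heavy chain *dnah7* of the inner arm rose. It had 38.7, 30.3 and 41.7 CPM in the libraries labelled knockdown, against 23.8, 24.4 and 20.1 CPM in the controls. Every library labelled knockdown lay above every control. Its log2 fold change was 0.68 (SE 0.19), with a 95% confidence interval from 0.29 to 1.07 and an edgeR-adjusted p of 0.0425. The call was close to the threshold and was lost in 7 of 13 alternative fits, with the adjusted p-value reaching 0.157 without knockdown replicate 3. It was also lost with DESeq2, at 0.117, with a filter blind to the groups, at 0.0516, without knockdown replicate 1, at 0.0864, and without control replicates 1, 2 and 3, at 0.139, 0.14 and 0.143. The estimate stayed between 0.58 and 0.80 throughout. *slc39a10*, whose span overlaps *dnah7* in RefSeq's GRCz12tu table, had a log2 change of 0.097, at an adjusted p of 0.762. An uncharacterised locus overlaps *dnah7* there too, and reads of overlapping genes cannot be told apart from those of *dnah7*.

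The other dynein heavy chains were not called. *dnah5*, a heavy chain of the outer arm, had 49.6, 35.8 and 42.6 CPM in the libraries labelled knockdown and 39.4, 33 and 42.2 CPM in the controls. The groups overlapped, and the log2 fold change of 0.17 had a 95% confidence interval from -0.20 to 0.53. *dnah9l* had 16.1, 12.7 and 7.34 CPM in the libraries labelled knockdown against 9, 3.85 and 8.05 CPM in the controls (log2 fold change 0.79, edgeR-adjusted p 0.215). It reached the filter cutoff in every library labelled knockdown but not in every control. *dnah2*, an inner-arm chain, and *dnah5l* had log2 fold changes of 0.40 and 0.38. *dnah1*, also of the inner arm, *dnah9* of the outer arm and the row *dnah6-3* lay slightly below the controls, at -0.25, -0.23 and -0.13, with edgeR-adjusted p of 0.641, 0.809 and 0.885. *dnah12*, split over 3 untested rows, averaged 7.72 CPM in the libraries labelled knockdown and 5.47 CPM in the controls when its rows were summed.

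Of the intermediate chains, *dnai2b* had 8.7, 11.8 and 7.8 CPM in the libraries labelled knockdown, against 5.29, 3.85 and 6.03 CPM in the controls. Its groups did not overlap, and its log2 difference of 0.91 had an edgeR-adjusted p of 0.124. *dnai2b* reached the filter cutoff in every library labelled knockdown but not in every control. *dnai1.2* overlapped between the groups, at 6.34 to 7.8 CPM in the libraries labelled knockdown and 5.13 to 9.53 CPM in the controls. *dnai2a* and *dnai1.1* had at most 1 count in any library.

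The dynein arm assembly factors were not called either. The row *dnaaf5-3* had 10, 9.51 and 11 CPM in the libraries labelled knockdown, against 6.62, 5.45 and 7.04 CPM in the controls (log2 fold change 0.68, edgeR-adjusted p 0.21). With its 3 rows summed, *dnaaf5* had 0.75 (SE 0.27) and an adjusted p of 0.105. *dnaaf2*, *dnaaf4* and *dnaaf1* had log2 fold changes of 0.39, 0.43 and -0.024, and their groups overlapped.

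Within the *cfap* family of cilia and flagella associated proteins, 12 of 14 tested rows lay above and 2 below the controls, and none was called. Only 8 of the 14 reached the cutoff of the count filter in every library. *cfap43*, *cfap53*, *cfap58* and *cfap61* reached it in every library labelled knockdown but not in every control, and all of these lay higher. *cfap44*, an axonemal protein of the dynein tether, had the highest log2 fold change of all motile axoneme rows, 0.95 ± 0.30 (SE). It had 13.5, 8.6 and 15.1 CPM in the libraries labelled knockdown, against 6.35, 7.05 and 5.53 CPM in the controls. The edgeR-adjusted p was 0.0748, and leaving out knockdown replicate 2 gave a call at 0.0295. *cfap53*, which is needed for left-right asymmetry, and *cfap61* had log2 fold changes of 0.89 and 0.88 and groups that did not overlap, with edgeR-adjusted p of 0.266 and 0.162. The central apparatus genes *cfap46* and *cfap74* had 0.63 and 0.29, at 0.186 and 0.561. *cfap36*, the *cfap* row with the most counts, had 20, 26.3 and 22.9 CPM in the libraries labelled knockdown and 20.1, 17 and 21.1 CPM in the controls. The 2 rows below the controls were *cfap97-2* and *cfap52-2*, at -0.25 and -0.10. The untested row *cfap97* lay the other way, at 4.66 CPM in the libraries labelled knockdown against 2.98 CPM in the controls, and with both rows summed *cfap97* had a log2 change of 0.12.

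Radial spoke and tektin genes had few counts. *rsph4a*, of the radial spoke head, had 10.9, 10.9 and 11 CPM in the libraries labelled knockdown, against 9.53, 6.09 and 7.54 CPM in the controls (log2 fold change 0.48, edgeR-adjusted p 0.385). *rsph9*, of the same structure, overlapped between the groups and had a log2 change of -0.064. *tekt4*, a filament protein inside the doublet microtubules, had a log2 change of 0.60, at an edgeR-adjusted p of 0.424. It reached the filter cutoff in every library labelled knockdown but not in every control. *tekt3*, untested, had 0, 1 and 1 counts in the libraries labelled knockdown, against 7, 7 and 4 counts in the controls, and was singled out after its values were seen. Both *rsph1* rows were at 0 in every library, where a count of 0 allows up to 3 counts, or 0.794 to 1.51 CPM depending on the library. That limit covers counting error only.

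**Figure D3:**
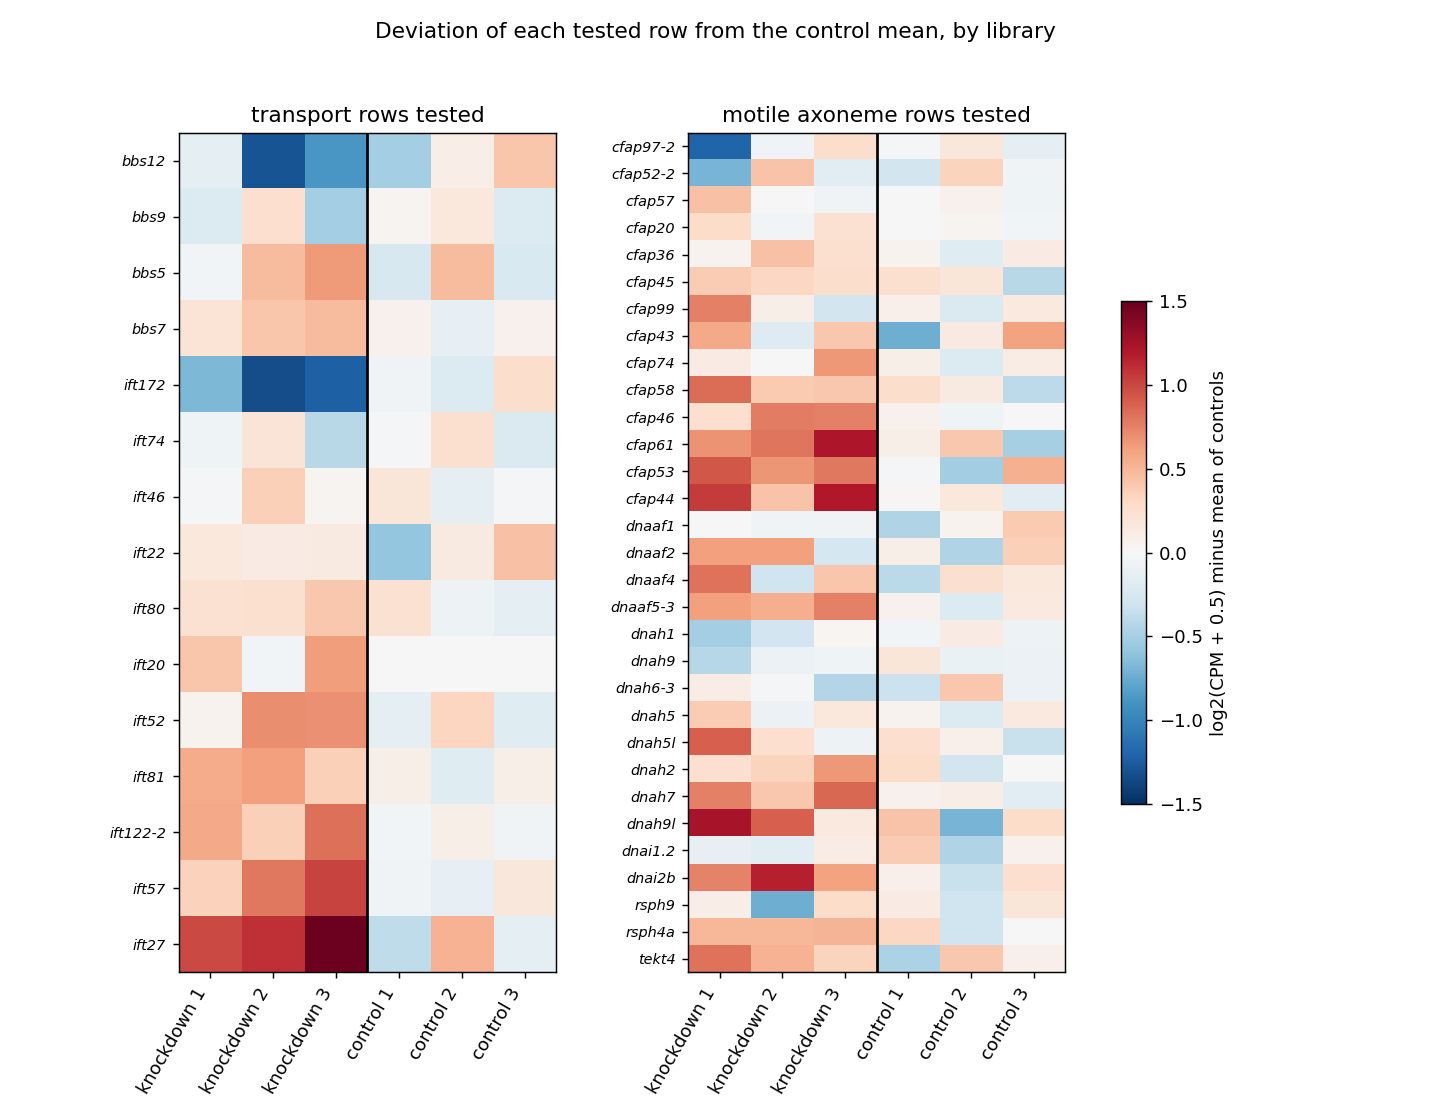
Deviation of log2(CPM + 0.5) from the mean of the controls for each tested member (down the page, by name group) in each library (across, libraries labelled knockdown left of the line and controls right of it); red is above and blue below the control mean, on a scale cut at 1.5. *ift172* is blue in all 3 libraries labelled knockdown, and most other rows are pale to red there.

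Taken over all tested members, the 3 called rows included, the median offset was small and most rows lay in one direction. Of the tested rows, 11 of 15 transport and 23 of 31 motile axoneme rows had a log2 fold change above 0, against 7990 of 15607 over the whole table. The medians were 0.35 and 0.29, against 0.011 over all tested rows. In 17 of the 46 members, or 37%, the groups did not overlap, 16 of them higher, beside 23.2% of all tested rows in either direction. These numbers cannot stand for the class as a whole, because 55 member rows were not tested. Of the tested members, 11 reached the filter cutoff in every library labelled knockdown but not in every control. Of those 11, 10 lay higher. The 11 were *ift22*, *ift27*, *bbs5*, *cfap43*, *cfap53*, *cfap58*, *cfap61*, *dnaaf1*, *dnah9l*, *dnai2b* and *tekt4*.

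A filter on the mean CPM of all 6 libraries does not depend on the groups. It kept 22 transport and 53 motile axoneme rows, and gave medians of 0.31 and 0.36, against 0.012 over the 21545 rows it tested. In that fit 14 of 22 transport and 40 of 53 motile axoneme rows lay above 0. Of its rows, 2.91% were called and 20.6% did not overlap between the groups in either direction. Among the members 2 were called, *ift172* and *ift27*, and 7 of 22 transport and 14 of 53 motile axoneme rows did not overlap. With no filter beyond 1 count, the medians over 28 and 64 rows were 0.26 and 0.27.

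Sums over all rows of a class, tested or not, take in every member. The 70 motile axoneme rows summed to 460, 408 and 444 CPM in the libraries labelled knockdown, against 352, 330 and 348 CPM in the controls, a ratio of means of 1.27. Those groups did not overlap. The 31 transport rows summed to 275, 299 and 285 CPM in the libraries labelled knockdown and 267, 277 and 272 CPM in the controls. The ratio was 1.05, and the ranges overlapped in CPM. That overlap depended on the TMM factors. As shares of raw library counts, the same rows held 0.0283%, 0.0299% and 0.0294% in the libraries labelled knockdown. The controls held 0.0264%, 0.0271% and 0.0264%, and these shares did not overlap. Without *ift172*, left out after its values were seen, the other 30 transport rows summed to 241, 278 and 262 CPM in the libraries labelled knockdown, against 213, 229 and 205 CPM in the controls, a ratio of 1.2. In those CPM sums the groups no longer overlapped. A difference between the transport and motile axoneme classes was not tested.

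**Figure D4:**
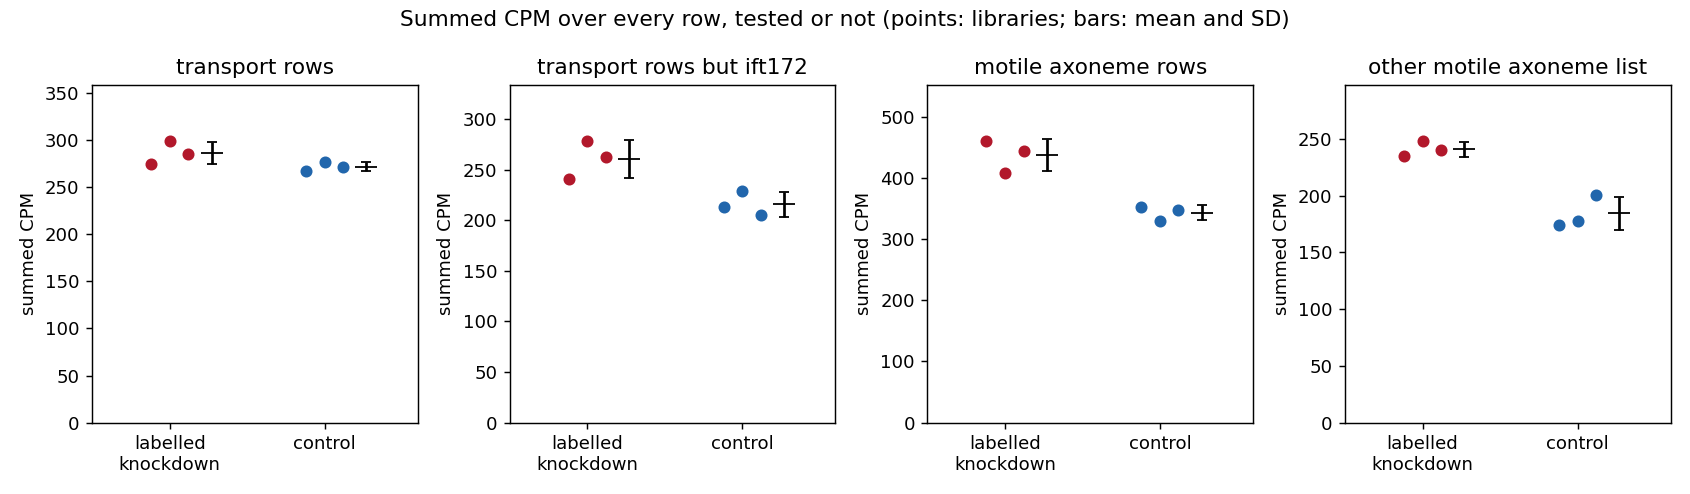
Summed CPM over all rows of the transport class, of the same class without *ift172*, of the motile axoneme class and of a list of other motile axoneme genes, per library (points, libraries labelled knockdown left of controls) with the mean and SD of 3 libraries. The motile axoneme sums are 408 to 460 CPM in the libraries labelled knockdown and 330 to 352 CPM in controls. In CPM, which carries the TMM factors, the transport sums overlap only when *ift172* is included.

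Summed over all their rows, *cfap* genes had 179 ± 9.21 CPM in the libraries labelled knockdown and 138 ± 2.08 CPM in the controls (SD, n = 3 each), and *dnah* genes 169 ± 20 CPM and 134 ± 9.11 CPM in the same order. The *dnaaf* genes had 37.2 ± 3.26 CPM in the libraries labelled knockdown and 27.6 ± 4.42 CPM in the controls. The ratio of means was 1.3 for *cfap*, 1.26 for *dnah*, 1.35 for *dnaaf*, 1.28 for *dnai*, 1.2 for *rsph* and 1.08 for *tekt* genes. It was 1.05 for *ift* and 1.06 for *bbs* genes, and differences between families were not tested. By library, the median deviation of the tested motile axoneme rows from the control mean was 0.43, 0.30 and 0.25 on the log2 scale in knockdown replicates 1, 2 and 3, and 0.066, 0.04 and -0.0031 in the controls. That of the transport rows was 0.15, 0.34 and 0.40 in the libraries labelled knockdown and between -0.039 and 0.09 in the controls. The library furthest from the controls was thus replicate 1 for the motile axoneme rows and replicate 3 for the transport rows.

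Other genes of the same machinery came from lists made from general knowledge of cilia. IFT and BBSome genes that go by other names had 11 of 11 tested rows above the controls, a median log2 fold change of 0.44 and no call. With the filter blind to the groups 13 of 15 lay above, with a median of 0.30. One of these rows, *ift22*, is also a member. *wdr35*, an IFT-A subunit and the row of this list with the most counts, had 40, 29 and 46.8 CPM in the libraries labelled knockdown and 35.2, 25 and 30.2 CPM in the controls. *hspb11*, the partner of *ift27* in IFT-B, had the highest log2 fold change of this list, 0.74, with an edgeR-adjusted p of 0.166. The motors of transport, kinesin-II and dynein-2, were split. Of 8 tested rows 4 lay above and 4 below the controls, with a median of -0.075, and *dync2h1*, the heavy chain of the return motor, had a log2 change of 0.038 (SE 0.14). Under the blind filter, which tested 10 rows, the median of the motors had the other sign, at 0.15.

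Transition zone genes, which form the gate at the base of the cilium, had a median of 0.16 over 17 tested rows, 12 higher and 5 lower, and no call. *cep290*, the row with the most counts there, had a log2 change of -0.19, at an edgeR-adjusted p of 0.563. The list of other motile axoneme and assembly genes had 18 of 19 tested rows above the controls, a median of 0.37 and 1 call, higher. However, 7 of those 19 rows reached the filter cutoff in every library labelled knockdown but not in every control. All 7 lay higher. With the filter blind to the groups 32 of 37 rows lay above the controls, with a median of 0.37 and the same 1 call. The called gene was *drc1*, of the nexin-dynein regulatory complex, which rose to 12.2, 16.8 and 13.8 CPM in the libraries labelled knockdown, against 4.24, 7.05 and 6.03 CPM in the controls. Its log2 fold change was 1.32 (SE 0.29), with an edgeR-adjusted p of 0.0122. *drc1* reached the main filter's cutoff in every library labelled knockdown but not in every control. Its edgeR-adjusted p with the blind filter was 0.0138. It lost its call in 1 of 13 alternative fits, without control replicate 1, at 0.107. *paplnb*, which overlaps *drc1* in the same RefSeq table, held at most 5 counts in a library. *spag1a*, a dynein assembly factor, had a log2 change of 0.37, at an edgeR-adjusted p of 0.41. Summed over every row, the list had 235, 248 and 240 CPM in the libraries labelled knockdown, against 174, 178 and 201 CPM in the controls.

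Among the transcriptional regulators of motile cilia, *rfx2* rose, 1 call among 10 tested rows. *rfx2* is a transcription factor of ciliary genes, and it had 119, 82.9 and 88 CPM in the libraries labelled knockdown, against 63.8, 65.7 and 51.3 CPM in the controls. Its log2 fold change was 0.67 (SE 0.16), with an edgeR-adjusted p of 0.0204. *fcho1*, which overlaps *rfx2* in RefSeq's GRCz12tu table, had a log2 change of 0.095. An uncharacterised locus overlaps *rfx2* there too, and reads of overlapping genes cannot be told apart from those of *rfx2*. The call of *rfx2* was lost without knockdown replicate 1, at 0.0756, and without control replicates 1, 2 and 3, at 0.0792, 0.0678 and 0.112. *foxj1a*, a main activator of the motile programme in zebrafish, averaged 22.6 ± 6.62 CPM in the libraries labelled knockdown and 21.1 ± 3.68 CPM in the controls (SD, n = 3 each). The log2 fold change came to 0.082, with an edgeR-adjusted p of 0.892. Its paralog *foxj1b* had 0.45 at 0.465. The median of the list was 0.051, with 6 rows higher and 4 lower. Lowest was the row *rfx4*, at -0.46 with an edgeR-adjusted p of 0.141 and groups that did not overlap. The other row of that name, *rfx4-2*, was at 0.019 and its groups overlapped.

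**Figure D5:**
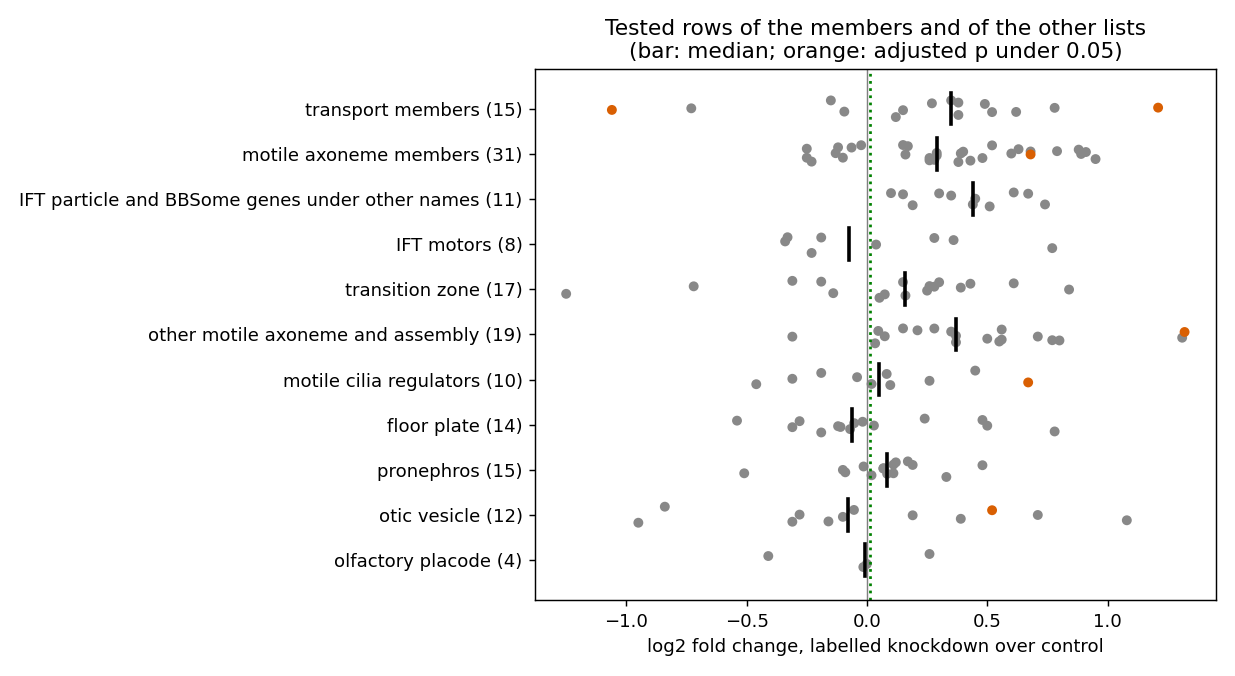
Log2 fold change of each tested row (points; orange for an adjusted p-value under 0.05) in the 2 member classes and the 9 other lists, with the number of tested rows in brackets, the median as a bar and the median of all tested rows as a dotted line. The medians of the IFT and BBSome genes under other names and of the other motile axoneme genes are 0.44 and 0.37, and those of the motors, regulators and 4 tissue lists lie between -0.079 and 0.084.

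Markers of tissues that carry motile cilia were set beside these values. Floor plate genes had a median of -0.061 over 14 tested rows and summed to 293, 264 and 224 CPM in the libraries labelled knockdown, against 245, 255 and 261 CPM in the controls. *ntn1b*, the floor plate row with the most counts, had a log2 change of -0.07, at an edgeR-adjusted p of 0.876. Pronephros genes had a median of 0.084 over 15 tested rows, 11 higher and 4 lower. Their sums were 548, 541 and 570 CPM in the libraries labelled knockdown, against 496, 510 and 539 CPM in the controls. Those sums did not overlap, by a narrow margin, and the ratio of means was 1.07. *cdh17*, a cadherin of the pronephric tubule, had a log2 change of 0.17, at 0.509. No floor plate or pronephros row was called, and the rows *odf3b*, *odf3b-3* and *slc20a1a-2* were at 0 in every library.

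Otic vesicle genes had a median of -0.079 over 12 tested rows, with 1 call. In 6 of the 12, or 50%, the groups did not overlap, 4 higher and 2 lower, beside 23.2% of all tested rows. The log2 fold changes ran from -0.95 for *otomp* (edgeR-adjusted p 0.0711) to 1.08 for *tecta* (0.0565). *otomp* reached the filter cutoff in every control but not in every library labelled knockdown, and *tecta* the other way round. The otolith matrix gene *stm* rose to 141, 114 and 149 CPM in the libraries labelled knockdown, against 84.5, 92 and 107 CPM in the controls. The log2 fold change of *stm* was 0.52 and its edgeR-adjusted p 0.0432, and the call was lost in 7 of 13 alternative fits, at up to 0.247 without control replicate 1. It was also lost with DESeq2, at 0.0645, with the filter blind to the groups, at 0.0554, without knockdown replicates 1 and 3, at 0.0703 and 0.129, and without control replicates 2 and 3, at 0.209 and 0.0669. An uncharacterised locus overlaps *stm* in RefSeq's GRCz12tu table, and its reads cannot be told apart from those of *stm*. The list summed to 417 to 460 CPM in the libraries labelled knockdown and 403 to 426 CPM in the controls, with the 3 rows of *atoh1a* and the row *eya1-2* at 0. Olfactory placode genes had a median of -0.0079 over 4 tested rows, *ebf2*, *dlx4b*, *emx3* and *neurog1*. The rows *ompa*, *ompb* and *trpc2b* were not tested, so the median does not cover them. Sums of the list were 130 to 141 CPM in the libraries labelled knockdown and 129 to 149 CPM in the controls. *ebf2*, its row with the most counts, had 72.9 ± 10.5 CPM and 72.4 ± 9.15 CPM in the same order (SD, n = 3 each), and the row *ompb-2* was at 0. The part of changed tissue shares in the values of the cilia genes was not tested.

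The precision limits these comparisons. The median SE was 0.24 for tested transport rows and 0.31 for motile axoneme rows, against 0.22 over all tested rows. For 8 of 15 transport and 15 of 31 motile axoneme rows, the 95% confidence interval lay within a doubling and a halving. The other 55 member rows were not tested. Of these, 9 were at 0 in every library, 11 had 10 or more counts in at least 1 library, and together they held 11.3% of the members' counts. Those 11 were *cfap97*, *ift140*, *dnah2-2*, *ift140-3*, *cfap73*, *ift43*, *tekt2*, *cfap206*, *rsph3*, *bbs1* and *dnah12-3*. *cfap206* averaged 4.38 CPM in the libraries labelled knockdown and 1.88 CPM in the controls, and *dnah12-3* 5.64 and 2.64 CPM in the same order.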

How the data were processed

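The authors deposited 1 table of raw read counts, with gene names as rows and libraries as columns. The submitters' processing notes name FastQC, cutadapt, STAR and DESeq2 and the build GRCz11; the counting tool, annotation and strand setting are not given in the sources used here. Columns were matched to samples by library name, and replicate numbers were taken from the titles. The labels conflict for control replicate 3, whose description repeats the number 2, so the block and pairing values rest on its title. The members and lists were chosen with earlier results of these data known.

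Rows were filtered with filterByExpr by group (minimum count 10, total 15), scaled with TMM factors and tested with edgeR 4.0.16 in R 4.3.3 (robust quasi-likelihood fit on group alone), with Benjamini-Hochberg adjustment over 15607 rows. A row passed the filter when as many libraries as a group holds reached 4.5 CPM before TMM scaling, whichever group they came from. A standard error is the log2 fold change divided by the square root of F. Log2 CPM used a prior count of 2. Totals of 2042600 to 3809123 counts limit rows with few reads. The test was also run on counts simulated from the observed means and the fit's own dispersions. Only rows of higher counts were changed there, so that run does not cover changes in rows with few reads.

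Named members were all called rows, the 2 rows of most counts per family, the 4 highest and 4 lowest log2 fold changes per class at a mean of 5 CPM or more, names with several rows, and untested rows with 10 or more counts in a library. From each list, called rows and the row of most counts were named. Other members, *tekt3* among them, and *hspb11*, *foxj1a*, *foxj1b*, *rfx4*, *otomp* and *tecta* were named after their values were seen. Alternatives were DESeq2 1.42.0 and its size factors, library size alone, no filter, a filter at a mean CPM of 1, rows of 1 name summed, a block for the replicate number, and fits that each left out 1 library. Of the 73 names, 72 matched RefSeq's GRCz12tu gene table, and 36 overlapped another gene there. No sequences were used. Figures were drawn with matplotlib 3.10.9.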

Additional observations from a re-analysis of the deposited data

How the results depend on the processing

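The number of called rows over the whole table was 1010 without a filter, against 669, and 218 to 914 when 1 library was left out. Called transport members numbered 1 with DESeq2, *ift172* alone, and 1 to 3 when 1 library was left out; called motile axoneme members numbered 0 with DESeq2 or the filter blind to the groups, and 0 to 2 when 1 library was left out. At an unadjusted p-value under 0.05, edgeR had 5 of 15 tested transport and 8 of 31 tested motile axoneme rows. Among all tested rows, 2826 of 15607, or 18.1%, lay under the same unadjusted threshold. The motile axoneme median was 0.38 over 22 rows with DESeq2 and 0.36 over 53 rows with the blind filter, against 0.29 over 31 rows. These medians thus cover different sets of rows. When 1 library was left out, it ran from 0.23 to 0.44 over 31 to 34 rows. The transport median then ran from 0.20 to 0.40. Neither class median changed sign. The cause of these shifts was not tested.

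Sign changes occurred in genes that were not called. Without scaling factors *dnaaf1* was at 0.03 and *ebf2* at 0.053. When 1 library was left out, the log2 fold change ran from -0.39 to 0.0079 for *bbs9*, -0.065 to 0.58 for *cfap43*, -0.49 to 0.16 for *cfap52-2*, -0.031 to 0.24 for *cfap57*, -0.60 to 0.10 for *cfap97-2*, -0.085 to 0.49 for *cfap99* and -0.27 to 0.16 for *dnaaf1*. It ran from -0.33 to 0.13 for *dnah6-3*, -0.34 to 0.15 for *dnai1.2*, -0.098 to 0.098 for *dync2h1*, -0.092 to 0.10 for *ebf2*, -0.15 to 0.36 for *ift22*, -0.016 to 0.23 for *ift46*, -0.26 to 0.044 for *ift74*, -0.21 to 0.079 for *ntn1b* and -0.28 to 0.19 for *rsph9*. Of 708 values recomputed for 56 named genes, 653 kept their direction and side of the threshold.

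With the replicate number as a block, 773 rows were called over the whole table, and the same 3 members; *ebf2* was at 0.0076. Deviations of same-numbered libraries correlated at -0.014, 0.0661 and 0.0685, and not every library correlated best with its own number, so the numbers were not taken as pairs.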
